A study of Danio rerio with 4 samples.

Results

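Haemoglobin chains and 2 further genes of red blood cells were followed through 4 skin libraries of male zebrafish, as a measure of the blood RNA in each library. The genes were chosen by name, and 7 names were given: the adult alpha chains hbaa1 and hbaa2, the adult beta chains hbba1 and hbba2, the beta-type row that carries the human symbol HBE1, alas2 and slc4a1a. Of these names 5 had a row among the 32105 genes counted, and they gave 6 rows, 3 of them haemoglobin chains. No row carried the symbols hbba1 or hbba2 in the gene name table used here, and whether rows named HBE1 stand for these chains is not given there, so adult beta chains may be counted under that symbol. The name slc4a1a was reached through the synonym slc4a1, which fits 2 rows named SLC4A1, ENSDARG00000012881 and ENSDARG00000024560. Which of them is slc4a1a is not given in that table, so both are described. The symbol HBE1 stands on 5 rows, and the one meant here is ENSDARG00000089087.

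The libraries hold RNA from skin at 5 months (n = 1), 24 months (n = 2, replicates 1 and 2) and 30 months (n = 1). The fish of 5 and 30 months belonged to the strain AB JxTu, and those of 24 months to AB JxTu Tg(wt1b:GFP), a line with a green fluorescent reporter under wt1b sequence. Every 24-month library is of the reporter line, so the age of 24 months and the strain cannot be told apart, whereas 30 and 5 months share their strain. Whether each library holds 1 fish or several is not given in the labels, and only the 24-month pair gives spread between libraries.

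Red cells of fish carry a nucleus and go on holding mRNA in the circulation, and in adult zebrafish they are formed in the kidney, which is both filter and marrow. Their haemoglobin joins alpha and beta chains around haem. The first step of erythroid haem synthesis is made by the enzyme of alas2, which is defective in the anaemic zebrafish mutant sauternes. Band 3, the anion exchanger of slc4a1a, carries bicarbonate and chloride across the red cell membrane and anchors its skeleton, and it is defective in the anaemic zebrafish mutant retsina. In mammals a form of band 3 is also made in the kidney. Skin is supplied by vessels, and blood comes along when it is sampled. In such bulk RNA, fewer red cells and less RNA per red cell cannot be told apart.

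Total counts were between 11833498 and 20441260 per library, with the lowest in 24 months replicate 2. Values below are CPM, which set each count against the total of its library, after adjustment by the trimmed mean of M-values (TMM). A count of 0 allows at most 0.130 to 0.310 CPM on that scale, from 3 counts per library, counting error only. Mitochondrial transcripts took between 1.27% and 12.9% of the counts, lowest in 24 months replicate 2 and highest at 30 months. Skin was checked by its keratins, and krt5 lay between 21069 and 49215 CPM in the 4 libraries.

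The haemoglobin chains were far higher in the skin library of 5 months than in any older one. The alpha chain hbaa1 (ENSDARG00000097011) had 319 CPM at 5 months, 68.5 and 51.3 CPM in replicates 1 and 2 at 24 months and 86.0 CPM at 30 months. The 3 older libraries lay close to each other and well apart from the youngest, whose level was 3.71 times that of the highest of them. The second alpha chain, hbaa2 (ENSDARG00000069735), had 87.0 CPM at 5 months, 5.65 and 2.38 CPM at 24 months and 6.25 CPM at 30 months. Its 5-month level was 13.9 times that at 30 months, the highest of the older libraries, and 36.6 times that of 24 months replicate 2. The beta-type HBE1 row had 585 CPM at 5 months, 105 and 71.6 CPM at 24 months and 63.3 CPM at 30 months. Here the 30-month library was the lowest of the 4, and the 5-month level exceeded it 9.24 times. Haemoglobin chains are close copies of each other, and reads that fit more than 1 copy may have been split or lost in the authors' counting, so the level of a single chain is less certain than that of all chains.

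**Figure D1:**
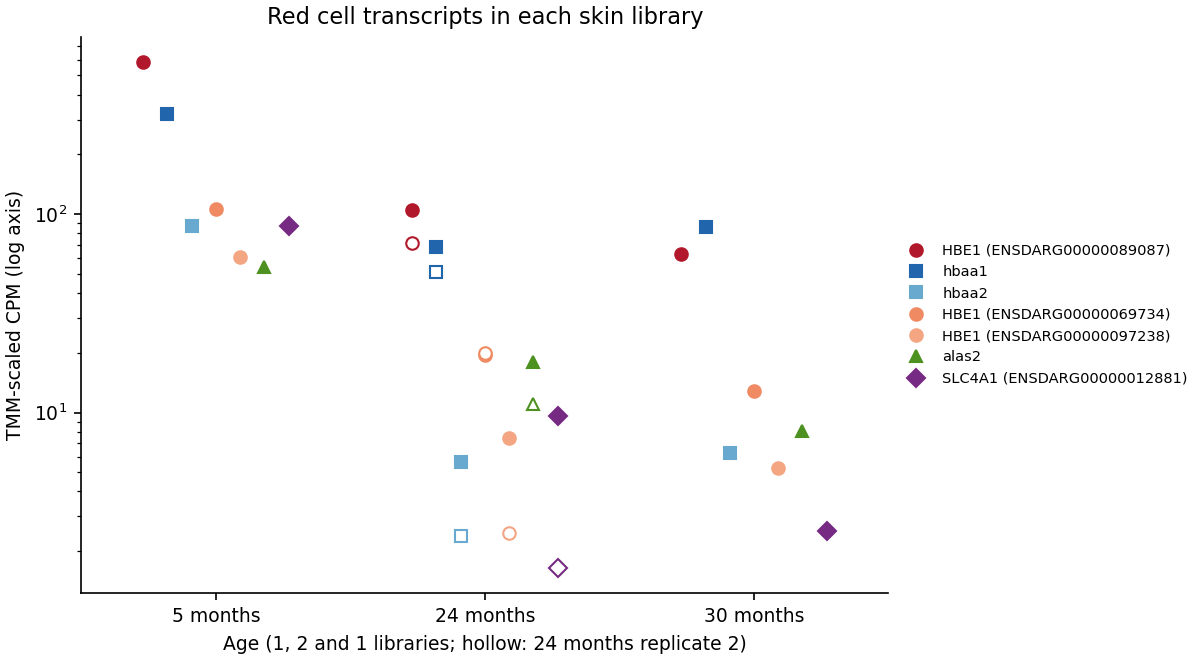
Level of 5 globin and erythrocyte rows and of 2 other HBE1 rows in each library, in TMM-scaled CPM on a log axis against age, with 1 point per library and hollow points for 24 months replicate 2. Each row stands highest at 5 months, with hbaa1 at 319 CPM there and between 51.3 and 86.0 CPM in the older libraries.

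The erythroid enzyme and the anion exchanger were highest at 5 months as well, with unequal steps to the older libraries. The haem synthesis gene alas2 (ENSDARG00000038643) had 54.4 CPM at 5 months, 17.9 and 11.1 CPM at 24 months and 8.08 CPM at 30 months. Its 4 libraries thus stood in order of age, and the gap between the 5-month level and the nearest library, at 3.03 times, was the narrowest among these rows. The anion exchanger row SLC4A1 (ENSDARG00000012881) had 86.8 CPM at 5 months, 9.56 and 1.65 CPM in the 24-month pair and 2.52 CPM at 30 months. The 30-month library lay between the replicates of 24 months, which differed from each other 5.78-fold. The other SLC4A1 row (ENSDARG00000024560) had only 18 counts at 5 months, 4 and 0 in the 24-month pair and 1 at 30 months. It passed the filter on low counts through the 5-month library alone, so it is left out of the counts below, which rest on the 5 rows averaging 5 CPM or more.

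All 5 of these rows were highest at 5 months, as were 20.9% of the 13182 genes averaging 5 CPM or more. A 5-month level at least 2 times that of each other library was found for 5 of the 5 rows and for 1.86% of those genes. With at least 4 times as the limit there were 3 of the 5 rows, hbaa2, HBE1 and SLC4A1, and 0.334% of the genes. The rows just outside that limit were hbaa1, at 3.71 times the 30-month level, and alas2, at 3.03 times the level of 24 months replicate 1. The mean of 5 CPM or more includes the 5-month library, and hbaa2 and SLC4A1 (ENSDARG00000012881) reach it only through that library. In the older libraries hbaa2 had 5.65, 2.38 and 6.25 CPM, and SLC4A1 had 9.56, 1.65 and 2.52 CPM. The counts above are therefore in part set by that mean, for rows and genes alike.

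Levels of different genes can be set side by side only per length. On a scale of CPM per kilobase of gene length (RPKM), with lengths recovered from the deposited tables, HBE1 led at 5 months with 601 RPKM, ahead of hbaa1 with 353 and hbaa2 with 154 RPKM. The anion exchanger followed with 23.0 RPKM and alas2 with 17.3 RPKM. In the 24-month libraries HBE1 had 108 and 73.6 RPKM and hbaa1 had 75.8 and 56.8 RPKM, in the same order as at 5 months. The alpha chain hbaa2 lay closer to the enzyme there, at 10.01 and 4.22 RPKM, with alas2 at 5.70 and 3.52 RPKM. The anion exchanger was then last, at 2.53 and 0.438 RPKM in replicates 1 and 2. At 30 months hbaa1 was first with 95.3 RPKM and HBE1 second with 65.1 RPKM, followed by hbaa2 with 11.1, alas2 with 2.57 and SLC4A1 with 0.668 RPKM. The order of HBE1 and hbaa1 was thus turned round at 30 months, and that of alas2 and SLC4A1 in all 3 older libraries.

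Skin of old fish was first set against that of young adults, at 24 and 5 months. Across all 21535 genes that passed the filter on low counts, edgeR's quasi-likelihood test called 0.125% different at an adjusted p under 0.05, and 0.0836% were called lower. Of the 13182 genes averaging 5 CPM or more, the limit set for the 5 rows, 9 were called higher and 15 lower. Among the 5 rows 1 was called. The alpha chain hbaa2 averaged 4.01 ± 2.31 CPM at 24 months (SD, n = 2), against 87.0 CPM at 5 months (n = 1), and fell by 4.42 on the log2 scale (SE 1.01, edgeR adjusted p = 0.0161). It was lower in 2 of 2 libraries, and its adjusted p lay between 0.0059 and 1 over the alternatives, with the loss under scaling by library totals alone. The anion exchanger SLC4A1 (ENSDARG00000012881) averaged 5.61 ± 5.59 CPM at 24 months and 86.8 CPM at 5 months, a log2 change of −3.94 (SE 0.99) that did not pass (edgeR adjusted p = 0.0557). Without the 30-month library the adjusted p of SLC4A1 was 0.0276, and it was between 0.0276 and 1 over all alternatives.

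The remaining rows lay in the same direction without passing, though 4 of the 5 rows had an unadjusted p under 0.05, beside 2.03% of all genes. That share is over tested genes of any level, without the limit of 5 CPM set for the rows. HBE1 averaged 88.2 ± 23.6 CPM at 24 months and 585 CPM at 5 months, a log2 change of −2.73 (SE 0.88, edgeR adjusted p = 0.671). The chain hbaa1 averaged 59.9 ± 12.1 CPM at 24 months and 319 CPM at 5 months, a log2 change of −2.41 (SE 0.84, edgeR adjusted p = 0.954). For alas2 the means were 14.5 ± 4.86 CPM at 24 months and 54.4 CPM at 5 months, a log2 change of −1.90 (SE 0.99, edgeR adjusted p = 1). The median log2 change of the 5 rows was −2.73, beside 0.08 over the genes averaging 5 CPM or more. Only the 24-month pair gives spread in this fit, and it is taken to hold for the single libraries of 5 and 30 months as well. The spread was shared over all genes of like level, with an infinite estimate of the prior degrees of freedom, so a row's own difference within the pair did not set its SE. Thus SLC4A1, whose replicates differed 5.78-fold, had an SE near that of hbaa1, and the p-values take each row to vary as genes of its level do.

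Between 30 and 24 months no row passed the test. With edgeR 0 of the 5 rows were called, beside 0.683% of all genes. Of the 13182 genes averaging 5 CPM or more, 28 were called higher and 119 lower. An unadjusted p under 0.05 was found for 0 of the 5 rows and for 4.76% of all genes of any level. DESeq2 called 0 rows too. HBE1, at 63.3 CPM at 30 months and 105 and 71.6 CPM at 24 months, differed by −0.48 (SE 0.93). The alpha chains were on the other side of 0, hbaa1 at 0.52 (SE 0.86) and hbaa2 at 0.63 (SE 0.99). The exchanger SLC4A1 differed by −1.17 (SE 1.07), with its 30-month level of 2.52 CPM inside the range of the pair, and alas2 by −0.84 (SE 1.07), with its 30-month level of 8.08 CPM below both replicates.

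A model of age as a number gave a slope for each gene, printed per 10 months on the log2 scale. SLC4A1 had the steepest, −2.05 (SE 0.42), then hbaa2 with −1.72 (SE 0.39), HBE1 with −1.33 (SE 0.28), alas2 with −1.06 (SE 0.31) and hbaa1 with −0.90 (SE 0.29). None passed, since edgeR called 0% of all genes, with 1.56% of all genes and 5 of these 5 rows at an unadjusted p under 0.05. The share of all genes is again without the limit of 5 CPM. DESeq2's Wald test called 27 genes, among them HBE1 (adjusted p = 0.0298) and SLC4A1 (adjusted p = 0.0289); over all alternatives the adjusted p ran from 0.0298 to 1 for HBE1 and from 0.000291 to 1 for SLC4A1. For hbaa2 it ran from 0.0059 to 1, and this chain passed in edgeR without 30 months (adjusted p = 0.0059). Without 24 months replicate 1, with 1 library left at each age, the slope was −1.68 for hbaa2 and −2.19 for SLC4A1. The lowest adjusted p of SLC4A1 came from that fit, which called many other genes as well. Without the youngest library the slope is the difference of 30 against 24 months put per 10 months, and it was then 0.86 for hbaa1 and 1.05 for hbaa2. It stayed negative for HBE1 (−0.81), alas2 (−1.41) and SLC4A1 (−1.94).

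**Figure D2:**
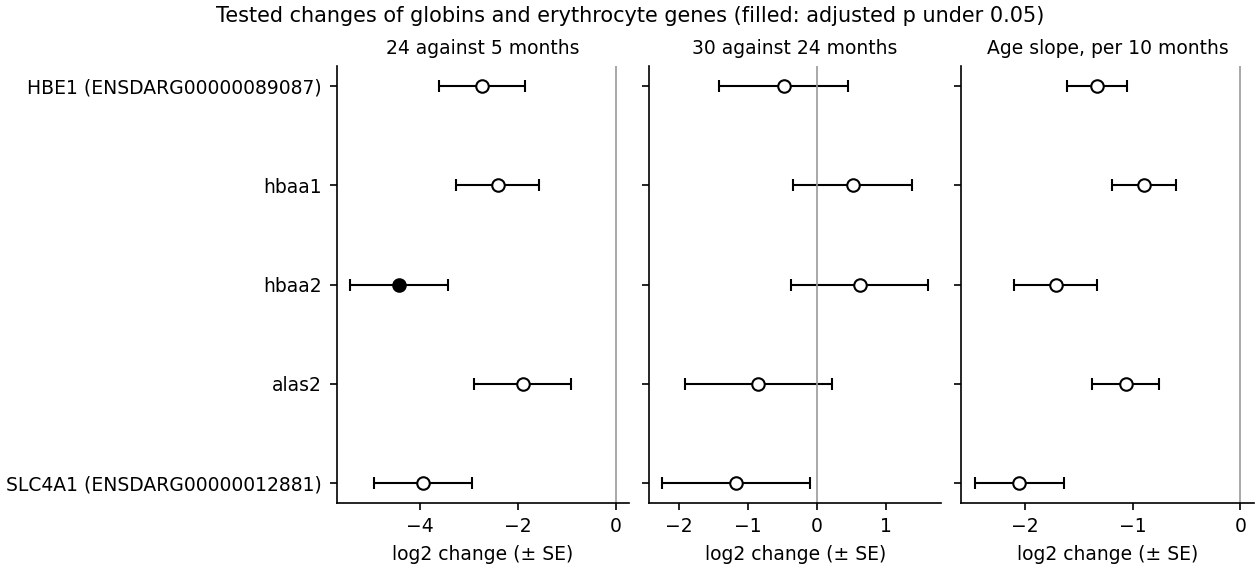
Log2 change from edgeR for 5 globin and erythrocyte rows, with a standard error computed from its F statistic. The panels show 24 against 5 months, 30 against 24 months and a slope per 10 months of age. All rows lie left of 0 in the left and right panels; hbaa2 in the left one, at −4.42, is the filled point past an adjusted p of 0.05, and the bars of 30 against 24 months lie near or across 0.

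The libraries of 30 and 5 months share a strain, and each is a single library, so their difference is described without a test. SLC4A1 had 2.52 CPM at 30 months and 86.8 CPM at 5 months, a log2 difference of −5.05 with a prior count of 2. The chain hbaa2 differed by −3.78, HBE1 by −3.20, alas2 by −2.73 and hbaa1 by −1.89. All 5 rows were at least 2-fold lower at 30 months, as were 14.8% of the genes averaging 5 CPM or more. Here too hbaa2 and SLC4A1 reach that mean only through the 5-month library. The gap was widest for the anion exchanger and narrowest for hbaa1.

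Within the 24-month pair, replicate 1 was above replicate 2 for all 5 rows, as it was for 44.2% of the genes averaging 5 CPM or more. The log2 difference was 0.42 for hbaa1, 0.55 for HBE1, 0.69 for alas2, 1.21 for hbaa2 and 2.45 for SLC4A1. The rows with the largest distance from 5 months were thus also those on which the 2 replicates were farthest apart. Their distance from the 5-month level was larger still in each replicate, at 15.4 and 36.6 times for hbaa2 and at 9.08 and 52.4 times for SLC4A1 in replicates 1 and 2.

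As a share of all counts the 3 haemoglobin rows took 0.113% at 5 months (exact 95% interval 0.112 to 0.115). They took 0.0205% (0.0199 to 0.0212) and 0.0102% (0.00967 to 0.0108) in replicates 1 and 2 at 24 months, and 0.0145% (0.0140 to 0.0150) at 30 months. The intervals did not overlap between any of the libraries, but they cover counting error only, since reads from amplified libraries are not independent molecules. Even at 5 months the counts of these rows were thus a small part of all counts. Reads lost because they fit more than 1 chain would make the share of haemoglobin in the RNA larger than this. The 14 rows found by a haemoglobin symbol, called all haemoglobin rows below, took 0.133%, 0.0240%, 0.0122% and 0.0163% in the order of age, with replicate 1 before replicate 2. Of the 32105 genes 26269 carry a symbol, so haemoglobin rows without one would be missing here.

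The proportions among the chains were not the same in all libraries. HBE1 held 50.3% of all haemoglobin counts at 5 months, 50.2% and 48.1% in the 24-month pair and 36.3% at 30 months. The share of hbaa1 was 27.5% at 5 months, 32.8% and 34.4% in the 24-month pair and 49.3% at 30 months. The 30-month library thus stood apart with hbaa1, and not HBE1, as its main chain. The share of hbaa2 was 7.49% at 5 months, 2.70% and 1.60% in the 24-month pair and 3.58% at 30 months, so that the youngest library stood apart for this chain.

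**Figure D3:**
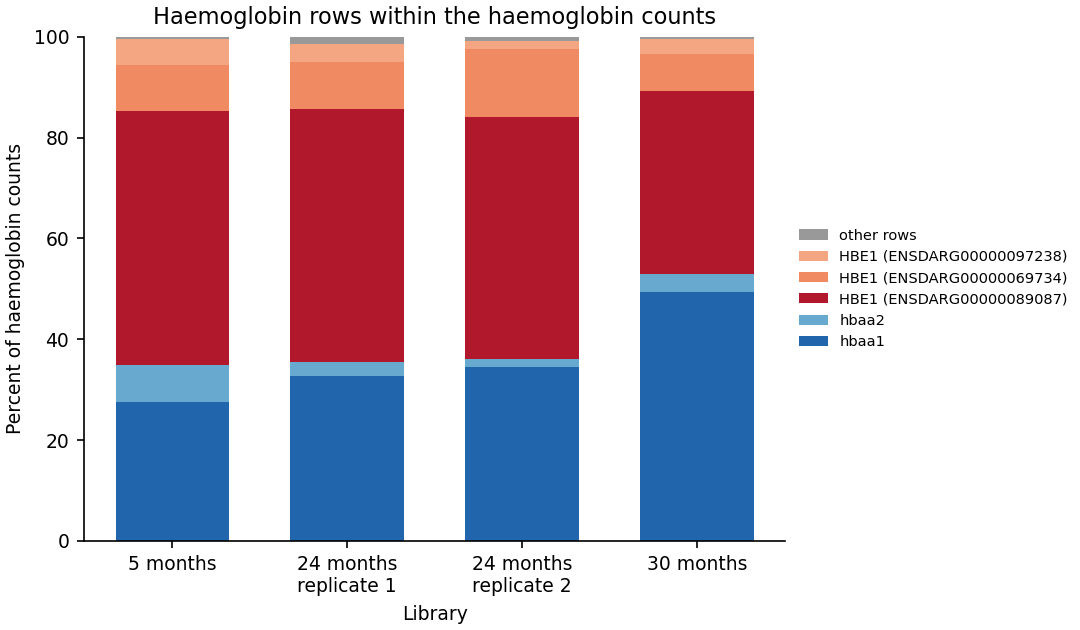
Share of each haemoglobin row in the haemoglobin counts of a library, in percent, as stacked bars for the 4 libraries. HBE1 (ENSDARG00000089087) makes up 50.3% at 5 months and 36.3% at 30 months, where hbaa1 reaches 49.3%, and the slice of hbaa2 is widest at 5 months.

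Ratios of counts, which need no scaling between libraries, showed the same. The 2 alpha chains had 0.695 counts for each count of HBE1 at 5 months (exact 95% interval 0.676 to 0.714), 0.706 and 0.750 in the 24-month pair and 1.46 (1.35 to 1.57) at 30 months. The first 3 libraries agree within counting error, and the interval of the 30-month library lay above all of theirs. With all haemoglobin rows on both sides the ratio was 0.546 at 5 months, 0.583 and 0.579 in the 24-month pair and 1.14 at 30 months. The ratio of hbaa2 to hbaa1 was 0.273 (0.259 to 0.287) at 5 months, 0.0825 and 0.0464 in the 24-month pair and 0.0726 (0.0598 to 0.0875) at 30 months. Here the youngest library was the one apart, and the intervals of the older 3 overlapped each other. With 1 library of each of these ages, age and library cannot be told apart in either ratio, and shares of single chains carry the doubt about reads that fit more than 1 copy.

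The enzyme and the exchanger differed in their ratio to the chains. For 1000 counts of the 3 haemoglobin rows there were 54.9 counts of alas2 at 5 months (51.6 to 58.3), 100.2 and 88.4 in the 24-month pair and 52.0 (43.9 to 61.1) at 30 months. The 24-month libraries were thus above the other 2, which agree within counting error. Of SLC4A1 (ENSDARG00000012881) there were 87.6 counts per 1000 at 5 months (83.4 to 91.9), 53.4 and 13.2 in the 24-month pair and 16.2 (11.9 to 21.5) at 30 months. SLC4A1 therefore stood highest against haemoglobin in the youngest library, and the intervals of replicate 2 at 24 months and the 30-month library overlapped. For each count of alas2 there were 1.60 of SLC4A1 at 5 months, 0.533 and 0.150 in the 24-month pair and 0.312 at 30 months.

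**Figure D4:**
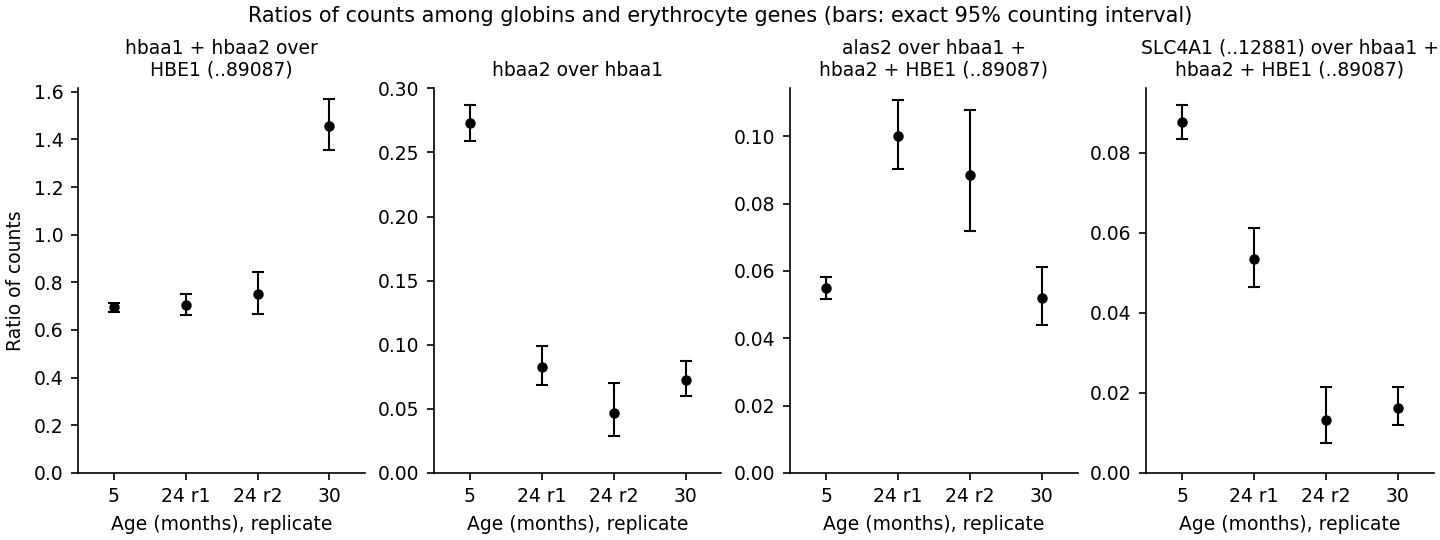
Ratios of counts in each library (r1 and r2 are the replicates of 24 months), with exact 95% counting intervals: alpha chains over HBE1, hbaa2 over hbaa1, and alas2 and SLC4A1 over the 3 haemoglobin rows. The first ratio is highest at 30 months, at 1.46, the second at 5 months, at 0.273, the third in the 24-month libraries and the fourth at 5 months.

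The other haemoglobin rows that passed the filter were also highest at 5 months. The HBE1 row ENSDARG00000069734 had 106 CPM at 5 months, 19.5 and 20.0 CPM at 24 months and 12.9 CPM at 30 months, a log2 change of −2.42 between 24 and 5 months. The HBE1 row ENSDARG00000097238 had 61.0 CPM at 5 months, 7.47 and 2.48 CPM at 24 months and 5.25 CPM at 30 months, a log2 change of −3.60. The 5-month library was clear of the others in both, and neither passed in edgeR (adjusted p = 1 and 0.301). The alpha-type row hbae4, named as an embryonic chain, had 4.17 CPM at 5 months, 2.48 and 0.931 CPM in the 24-month pair and 0.472 CPM at 30 months. The 8 other rows of HBE1, hbae and hbbe chains did not pass the filter on low counts, and 2 of them had no count in any library.

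Of the wider red cell programme, read in lists drawn up from textbook knowledge, no gene passed the test. Over 7 lists with 80 rows, 70 were tested between 24 and 5 months, 49 were lower, as were 52.3% of all genes, and 21 higher, and 0 passed the edgeR test in either direction, beside 0.125% of all genes. Their median log2 change was −0.51, beside −0.06 over all genes tested. In the 2 other tests 0 of these rows passed as well. For the counts of rows highest at 5 months given below, 5624 of all 21535 genes tested, at any level, were highest there.

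Haem synthesis outside alas2 had 7 of 9 rows lower, 0 called, a median log2 change of −0.53 and 6 of 9 rows highest at 5 months. ALAS1, the housekeeping counterpart of alas2, had 676 CPM at 5 months, 663 and 1843 CPM at 24 months and 425 CPM at 30 months. Its order of libraries was unlike that of alas2, with its highest level in 24 months replicate 2. ALAD, the next enzyme of the chain, had 13.2 CPM at 5 months, 8.30 and 9.93 CPM at 24 months and 12.3 CPM at 30 months, and UROD, a later one, had 14.6, 10.9 and 16.9, and 8.08 CPM in the same order. Neither had a 5-month library apart from all the others, but uros, the synthase before UROD, did, with 10.8 CPM at 5 months, 2.95 and 1.45 CPM at 24 months and 3.99 CPM at 30 months.

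Iron uptake and transport into mitochondria had 9 of 15 rows lower and 0 called, with a median of −0.33 and 6 of 15 rows highest at 5 months. The transferrin receptor tfr1b had 113 CPM at 5 months, 105 and 64.7 CPM in the 24-month pair and 72.0 CPM at 30 months. The receptor tfr1a, whose loss leaves zebrafish embryos anaemic, had 58.2 CPM at 5 months, 7.78 and 22.2 CPM at 24 months and 28.4 CPM at 30 months, with the highest level again at 5 months. The mitochondrial carrier slc25a39 stood at 186 CPM in 24 months replicate 2 alone and between 14.3 and 27.8 CPM in the other libraries.

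Of the red cell membrane and its skeleton 11 of 14 tested rows were lower, 0 were called, the median was −1.32, and 9 of the 14 were highest at 5 months. The median log2 difference of these rows to 5 months was −0.94 in replicate 1. It was −2.17 in replicate 2, where several of them had few or no counts. The beta spectrin SPTB had 33.0 CPM at 5 months, 9.86 and 2.38 CPM in the 24-month pair and 22.7 CPM at 30 months. The ammonia channel of the red cell membrane, RHAG, had its highest level at 30 months instead, with 62.1 CPM at 5 months, 60.2 and 79.0 CPM at 24 months and 131 CPM at 30 months, and so did stom, the membrane protein stomatin, with 30.2, 42.9 and 34.2, and 70.9 CPM. The list therefore held both rows that were highest at 5 months and rows that were highest at 30 months. Among red cell enzymes 6 of 6 were lower, BPGM by as little as −0.0037, 0 were called, the median was −0.51, and 2 of the 6 were highest at 5 months. The nucleotidase NT5C3A had 128 CPM at 5 months, 97.4 and 75.5 CPM at 24 months and 169 CPM at 30 months, and the reductase blvrb had 34.9, 16.2 and 40.0, and 16.1 CPM in the same order. The carbonic anhydrase cahz, known from zebrafish red cells and picked with its values in view, had 60.3 CPM at 5 months, 18.2 and 2.07 CPM at 24 months and 7.30 CPM at 30 months. BPGM, which makes an allosteric effector of haemoglobin in mammals, was instead highest at 30 months, with 92.9 CPM, and had 15.0 to 27.0 CPM in the other libraries.

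Among erythroid regulators 11 of 16 were lower, 0 were called and the median was −0.43, and 8 of the 16 had their highest level at 5 months. The master factor of red cell fate gata1a had 5.37 CPM at 5 months, 2.09 and 1.97 CPM in the 24-month pair and 1.26 CPM at 30 months. The erythroid factor klf1 had 2.74 CPM at 5 months, 0.565 and 0.517 CPM at 24 months and 0.210 CPM at 30 months. Both, picked with their values in view, were highest at 5 months and lowest at 30 months, at levels of few counts. The kinase JAK2, which acts in many cell types, had 63.1 CPM at 5 months, 63.9 and 132 CPM at 24 months and 46.3 CPM at 30 months, which is a different order, and LMO2, NFE2, GFI1B, gata1b, jak2a and both LDB1 rows were also highest in another library than that of 5 months. Genes that clear haemoglobin, haem and iron were lower in 2 of 7 rows and higher in 5, with 0 called and a median of 0.35; the ferritin chain fth1a had 1097 CPM at 5 months, 1195 and 1603 CPM at 24 months and 1954 CPM at 30 months.

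Markers of other cells and organs were read beside the globins. Of all genes tested, 0.125% were called between 24 and 5 months. The endothelial list, for the vessels that hold the blood, was lowest in sum at 5 months. Its 13 rows gave sums of 306, 311, 360 and 397 CPM, with libraries in order of age and replicate 1 before replicate 2. In the 24-month pair 7 rows were higher than at 5 months and 6 lower, and 0 were called. The vascular receptor kdrl stayed between 53.9 and 67.9 CPM, while cdh5 had 29.6, 14.4, 15.2 and 40.5 CPM in the same order. The row tek reached 69.8 CPM in replicate 2, against 12.7 to 20.7 CPM in the other libraries. Whether the amount of vessel differed between the libraries was not tested. Renal tubule genes, in contrast, were highest at 5 months in 13 of 13 rows. The 13 rows summed to 483 CPM at 5 months, 16.9 and 3.41 CPM at 24 months and 2.94 CPM at 30 months. Several of them had next to no counts in the older libraries and passed the filter through the 5-month library, so counts of calls are not given for this list. Others had counts in 24 months replicate 1: SLC34A1 (ENSDARG00000028824) 84, CUBN 75, LRP2 61, SLC22A8 45 and atp1a1a.4 92. The tubule cadherin CDH17 had 78.0 CPM at 5 months, and 0.347, 0 and 0.420 CPM in the older libraries. The library of 5 months was thus the one in which the globins, alas2 and the tubule list were highest, and the part of kidney RNA in the red cell levels was not tested.

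Further lists had other orders of libraries. Between 24 and 5 months, 0.125% of all genes tested were called and 52.3% were lower. White cell genes were higher at 24 than at 5 months in 11 of 13 tested rows (median 1.34), and 1 of them, the antibody heavy chain ighm, was called. That call rests on replicate 1, where ighm reached 299 CPM, while replicate 2, at 2.07 CPM, lay below the 5-month library, at 3.74 CPM. The white cell list summed to 225 CPM at 5 months, 829 and 329 CPM at 24 months and 335 CPM at 30 months. Thrombocyte genes had a median log2 difference to 5 months of −0.46 in replicate 1 and −1.84 in replicate 2. They were lower at 24 than at 5 months in 5 of 6 rows (median −1.28, 0 called). Their sum of 65.5 CPM at 5 months, 68.3 and 167 CPM at 24 months and 60.5 CPM at 30 months was mostly that of the other row, f13a1b, which had 55.6, 61.1 and 165, and 54.3 CPM in the same order. Skeletal muscle genes were lower in 17 of 19 rows between 24 and 5 months (median −0.96, 1 called, an ACTA1 row), yet summed to 25701 CPM at 5 months, 15187 and 10445 CPM at 24 months and 26435 CPM at 30 months. Testis germ cell genes summed to 826 CPM at 5 months and to 783 CPM in 24 months replicate 1, but to 1.65 CPM in replicate 2 and 13.02 CPM at 30 months. The 30-month sum was mostly that of SYCP1, with 228 counts there, while each other row had at most 6. Replicate 1, with these germ cell transcripts, had 68.5 CPM of hbaa1, between the 51.3 and 86.0 CPM of the 2 libraries in which most of them are near 0. Its level of hbaa2 lay between those of these 2 libraries too. For HBE1, alas2 and SLC4A1 (ENSDARG00000012881), however, replicate 1 was above both of those libraries, with 105 against 71.6 and 63.3 CPM, 17.9 against 11.1 and 8.08 CPM, and 9.56 against 1.65 and 2.52 CPM. Of heart muscle the markers MYL7, nppa, nppb and cmlc1 were at or near 0 in all libraries, with at most 0.096 CPM, and the whole list summed to between 1.97 and 13.1 CPM. The part of muscle, germ cell and white cell RNA in the red cell levels was not tested.

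**Figure D5:**
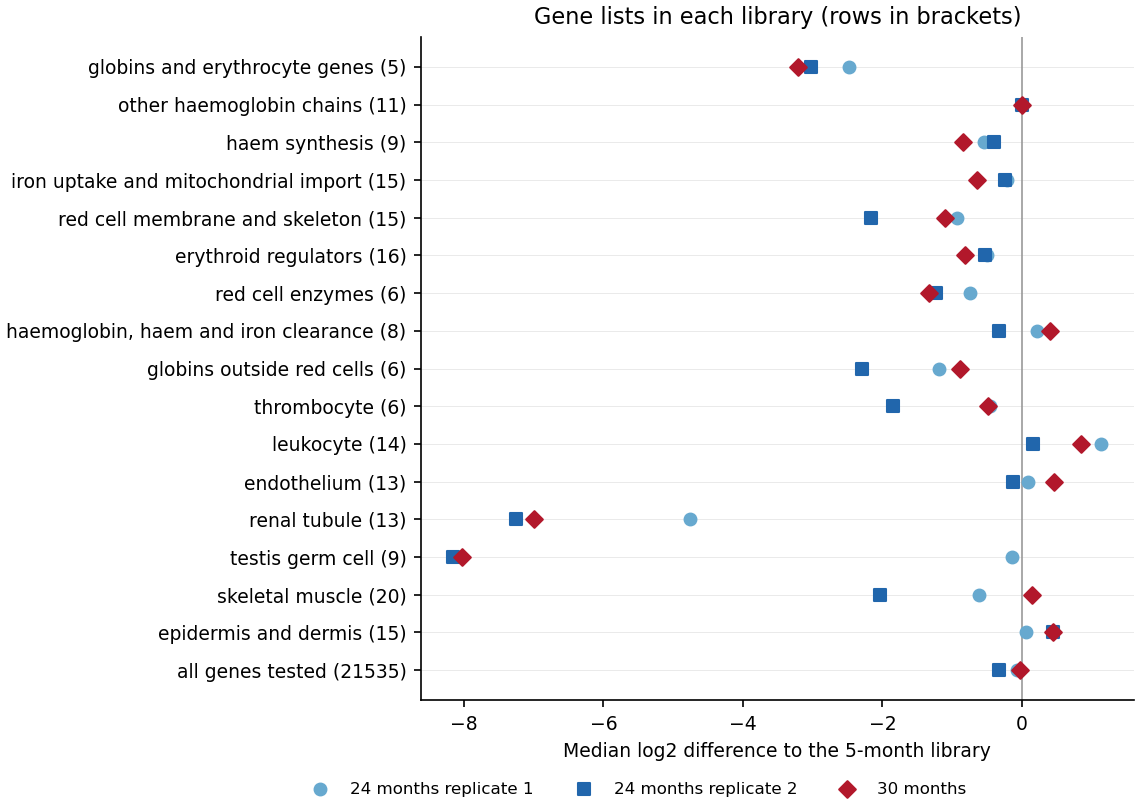
Median log2 difference to the 5-month library over all rows of each list, for 24 months replicates 1 and 2 and for 30 months. The 5 globin and erythrocyte rows averaging 5 CPM or more (medians of −2.48, −3.03 and −3.20) and renal tubule genes lie more than 2 left of 0 in all 3 older libraries. The haem synthesis, iron uptake, membrane, regulator and enzyme lists, globins outside red cells and thrombocyte genes lie left of 0 in all 3 too. So do all genes tested, at −0.08, −0.34 and −0.04, and in replicate 2 the iron uptake list, at −0.24, lies right of them. The endothelial list lies near 0, the other haemoglobin chains, most of them with few or no counts, lie at 0, and testis germ cell genes lie far left of 0 in 2 of the libraries and near 0 in 24 months replicate 1.

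Genes whose pattern over the 4 libraries was nearest to that of the haemoglobin chains were found by the root mean square distance of centred log2 CPM, among 11741 named genes averaging 5 CPM or more. The nearest was npsn, a secreted metalloprotease known from fish neutrophils, at a distance of 0.21. It had 49.1 CPM at 5 months, 9.86 and 4.65 CPM in the 24-month pair and 8.03 CPM at 30 months. The neutrophil lysozyme lyz was the third, at 0.35, with 37.6 CPM at 5 months, 7.82 and 2.90 CPM in the 24-month pair and 3.78 CPM at 30 months. These 2 ran against the white cell list as a whole. Among the others of the 10 nearest were the myosin genes myhz1.3 and myha, the HBE1 row ENSDARG00000097238, LRRC20 and linc-epb41l4a. Also among them were mslna and the myosin-binding gene mybpc2b, and these genes lay at distances of 0.30 to 0.48. Farther off than all of the 10 were alas2 (0.60), SLC4A1 (ENSDARG00000012881, 0.96), HBE1 (ENSDARG00000069734, 0.50) and hbae4 (0.93). So was hbaa2, itself part of the profile, at 0.55, while the low-count row SLC4A1 (ENSDARG00000024560) was nearer, at 0.39.

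The 5 genes nearest to alas2 were fam83d, sema6ca, DYNLL2 (ENSDARG00000069790), EML5 and SELENOI, at distances of 0.18 to 0.24. The first of them, fam83d, had 22.8 CPM at 5 months, 8.90 and 4.24 CPM in the 24-month pair and 2.83 CPM at 30 months. The 5 nearest to SLC4A1 (ENSDARG00000012881) were znf1179, the transporter slc47a2.1, the parvalbumins pvalb1 and pvalb2 and the HBE1 row ENSDARG00000097238, at 0.42 to 0.63. Likeness over 4 libraries, of which 1 stands far from the others, is a weak measure. Within a distance of 0.25 lay 1 gene for the haemoglobin chains, 5 for alas2 and 0 for SLC4A1.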

How the data were processed

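The 4 libraries were prepared from total RNA of male skin with Illumina's kit for multiplexed mRNA, per the labels' protocols. Per the submitters' processing notes, the tools CASAVA 1.7, featureCounts 1.4.6-p4 and STAR 2.4.1d and the build GRCz10 belong to the data, with no roles stated. No annotation release or strand setting was given in the sources used here, so antisense or overlapping genes cannot be told apart. The authors' deposited counts, whole reads per gene for 32105 genes, were the basis of every test. The second deposited table is named for RPKM but was treated as a score, since the library totals behind it change with a period of 24 rows and lie between 0.391 and 2.05 times a library's own total. It served to recover gene lengths, whole to within 0.1 base for 1825 of 1826 genes checked, and RPKM was computed anew from the counts.

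Counts were tested with edgeR 4.0.16 in R 4.3.3: filterByExpr by group (21535 genes kept), TMM scaling (factors between 0.817 and 1.15, lowest for 24 months replicate 2), glmQLFit and glmQLFTest, two-sided, with Benjamini-Hochberg adjustment over all genes at 0.05. Group means (1 residual degree of freedom) gave 24 against 5 and 30 against 24 months, and age in months gave the slope. The test gives no standard error, so each SE is the size of the unshrunken log2 change divided by the square root of F. A prior count of 2 was used for log2 differences of CPM, and intervals are exact binomial ones at 95%. P-values of the group tests rest on the spread within the 24-month pair, shared over genes of like level. Those of the slope rest on the spread of the libraries around the fitted line. Either spread may be technical. Alternatives were other scalings, no filter on low counts, robust estimates, DESeq2 1.42.0, other prior counts and leaving out libraries.

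The genes and lists were chosen with earlier results of these data known, so they are no independent evidence. Named genes were the 3 of each list with the highest mean CPM and any called one, with the genes of nearest pattern, 1 of which is not reported here; the limit of 5 CPM for counts over members and the name filter for nearest patterns were settled with values in view; tfr1a, uros, cahz, gata1a, klf1, nppa, nppb and cmlc1 lie outside it and were picked with their values in view. Names came from a table of gene symbols and, for synonyms, from the annotation of another build (GRCz12tu), so no coordinates are given.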

Additional observations from a re-analysis of the deposited data

How the results depend on the processing

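All 5 rows with a mean of at least 5 CPM kept a negative change between 24 and 5 months and between 30 and 5 months under each alternative run. Of the 166 repeats of all 6 single rows in the 3 tests, 129 kept direction and side of the threshold, 25 kept direction with no adjusted p to set against it, 7 passed newly, 1 no longer passed and 4 reversed. Without 30 months the slope repeats the test of 24 against 5 months, and without 5 months the difference of 30 against 24 months, so these are not separate checks. Rows called between 24 and 5 months were 1, but 0 with library totals alone (where edgeR called 0 of all genes). They were 2 without the 30-month library, where edgeR called 34 of 21087 genes. For the slope they were 0, but 2 with DESeq2, which called 27 of 19447 genes. They were 0 to 2 when 1 library was left out, with 2 without 30 months, where edgeR called 34 of 21087 genes. With a 24-month replicate left out, 30 against 24 months lay between −1.92 and 0.61 for SLC4A1 (ENSDARG00000012881) and between −1.62 and 2.99 for SLC4A1 (ENSDARG00000024560), positive without replicate 1. With 1 library left out, the slope lay between −1.24 and 0.86 for hbaa1 and between −2.30 and 1.05 for hbaa2, positive without 5 months. The cause was not tested. Over all genes the calls ranged from 0 to 39 for 24 against 5 months (27 as reported), from 2 to 147 for 30 against 24 months (147) and from 0 to 372 for the slope (0). Scaling by library totals alone shifted the median gene by −0.24 for 24 against 5 months and −0.29 for 30 against 5 months.

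The haemoglobin share, in the order of 5 months, 24 months replicates 1 and 2 and 30 months, was 0.120%, 0.0220%, 0.0104% and 0.0166% of the total without mitochondrial transcripts. Against the counts of the epidermis and dermis list it was 1.48%, 0.469%, 0.103% and 0.353%, and with all haemoglobin rows, chosen after seeing the data, 0.133%, 0.0240%, 0.0122% and 0.0163%. The epidermis and dermis list includes collagens, whose counts differed widely between libraries, so the share against it also moves with them. In the same order, alpha over beta chains was 2.43, 2.74, 2.36 and 5.05 without HBE1 (ENSDARG00000089087) and 0.546, 0.583, 0.579 and 1.14 with all rows. The share kept the same order of libraries, and alpha over beta chains was highest at 30 months, in each of these.

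No paired analysis was possible because the labels give the libraries no shared replicate numbers. Leaving out a replicate of 24 months removes all residual spread, so group differences then have no test: between 24 and 5 months hbaa2 stood at −5.19 without replicate 1 and −3.87 without replicate 2. The deposited RPKM were not used as they stand, but after correction of their totals. Depth limits SLC4A1 (ENSDARG00000024560), with at most 18 counts.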

Other observations

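Of 6 rows of globins outside red cells, 4 were highest at 5 months, as haemoglobin was, and the 2 most abundant on average, mb and CYGB, were highest at 30 months. Myoglobin, mb, the oxygen store of muscle, had 111 CPM at 5 months, 40.8 and 116 CPM at 24 months and 343 CPM at 30 months, so that its highest level was in the oldest library. Cytoglobin, CYGB, known from fibroblasts in mammals, lay between 32.9 and 41.8 CPM in all 4 libraries. Androglobin, ADGB, known from the testis in mammals, had 59.0 CPM at 5 months and 20.8 CPM in 24 months replicate 1. It had 0.827 CPM in replicate 2 and 0.525 CPM at 30 months, the libraries in which most germ cell markers are near 0. The fish globin xgb had 2.54 CPM at 5 months, 1.69 and 0 CPM in the 24-month pair and 0.0525 CPM at 30 months. It was likewise low in the libraries with most germ cell markers near 0. Neuroglobin, NGB, and cygb2 had at most 13 counts in a library. With edgeR 5 of 5 tested rows were lower at 24 than at 5 months (median −1.54), as were 52.3% of all genes. In the 3 tests 0 were called, beside 0.125% of all genes (24 against 5 months), 0.683% (30 against 24 months) and 0% (slope).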
